A study of Mus musculus with 6 samples.

Results

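The CpGs described here lie more than 10 kb from every gene annotated in GENCODE M21 and in no CpG island (CGI), on the 19 mouse autosomes of GRCm38. They were chosen by position and by depth alone, with at least 10 and under 1000 reads in all 6 libraries, and not by their methylation. There were 161202 such intergenic CpGs among the 725061 autosomal CpGs that passed the same read filter, or 22.2%. The other 401223 CpGs outside CGIs, inside genes or up to 10 kb from one, served for comparison. DNA methylation was measured by reduced representation bisulfite sequencing (RRBS) in CD8+ T cells magnetically enriched from LNs of 13-week-old C57BL/6N mice. The 3 genotypes were WT, mice with a transgene for human STAT5B (hSTAT5B +/T), and mice with a transgene for the mutant hSTAT5BN642H, which carries an asparagine-to-histidine change in the SH2 domain. Both transgenes are driven by the Vav1 promoter, which is active throughout the hematopoietic system, and the hSTAT5BN642H mice had T cell disease when the cells were taken. Each genotype had 2 libraries, each from 1 mouse, and the age, tissue, and enrichment were shared by all 6.

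CpG methylation is copied onto new DNA after each replication by DNMT1 and its partner UHRF1. Far from genes the mouse genome is mostly methylated, and much of this sequence is made of transposable elements, which are kept silent in part by methylation. Gene-poor DNA tends to replicate late and to lie at the nuclear periphery, and loss of methylation in such domains is known from dividing normal cells and from many cancers. Intergenic CpGs that stay unmethylated are often found in distal enhancers or at unannotated starts of transcription.

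MspI, the enzyme of RRBS, cuts at CCGG. Of the intergenic CpGs 57.0% were the CpG of such a site, and the intergenic CpGs were 2.94% of the 5480310 CpGs of the genome that meet the position rule. They held more repeats than the genome offers: 62.5% lay in soft-masked sequence, against 35.6% of all CpGs that meet the position rule and 29.6% of the other CpGs measured outside CGIs. A large share were copies of a few sequences. When the 24 bases centred on each MspI site were compared, 39.2% of the intergenic sites had a context that occurred at least 10 times among them, and 53.1% had a context found at no other intergenic site. The most frequent context alone supplied 8132 sites, or 5.04% of all intergenic CpGs. The 8 most frequent contexts are printed on the strand that comes first in the alphabet, with the measured CpG in capitals, because their copies share a sequence but not a neighborhood.

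Context 1: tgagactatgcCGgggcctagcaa
Context 2: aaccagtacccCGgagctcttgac
Context 3: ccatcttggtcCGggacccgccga
Context 4: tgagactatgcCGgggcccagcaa
Context 5: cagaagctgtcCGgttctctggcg
Context 6: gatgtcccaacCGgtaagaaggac
Context 7: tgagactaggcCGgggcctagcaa
Context 8: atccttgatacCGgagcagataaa

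Counted from 1 at the 5' end, context 4 differs from context 1 by T19C and context 7 differs from it by T9G. Every site of these 8 contexts was soft-masked, and each context was measured on 19 autosomes, so that they are dispersed repeats.

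Single places are also shown, with all CpGs of the reference in capitals, for the results that turn on them below. They are 120 bases of the plus strand of GRCm38, centred on the cluster or tile or moved to its stretch with most measured CpGs. The first is the unmethylated cluster beyond Ets1, the next pair are CpG-dense methylated clusters of gene-free DNA, then follows the neighborhood of the CpGs farthest from any gene, and the last pair are from 5-kb tiles among those with the smallest p, in opposite directions.

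Ets1 cluster, chr9:32940643-32940762: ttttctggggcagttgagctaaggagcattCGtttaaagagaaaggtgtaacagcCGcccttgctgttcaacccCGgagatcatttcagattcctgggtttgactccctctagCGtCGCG
Olfm4 cluster, chr14:81560796-81560915: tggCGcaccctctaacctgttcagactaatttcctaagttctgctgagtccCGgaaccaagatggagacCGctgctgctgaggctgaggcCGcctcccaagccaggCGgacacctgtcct
Ralyl cluster, chr3:12837337-12837456: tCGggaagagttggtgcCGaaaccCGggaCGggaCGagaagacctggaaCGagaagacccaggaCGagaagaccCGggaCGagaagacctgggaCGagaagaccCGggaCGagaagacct
Farthest CpGs, chr1:114576488-114576607: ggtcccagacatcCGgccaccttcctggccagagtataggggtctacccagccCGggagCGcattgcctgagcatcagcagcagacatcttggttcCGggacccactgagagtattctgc
Slc37a3 tile, chr6:39281582-39281701: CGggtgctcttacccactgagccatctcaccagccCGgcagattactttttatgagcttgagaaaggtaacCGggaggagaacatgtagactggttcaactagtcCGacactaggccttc
Bcas1 tile, chr2:170258563-170258682: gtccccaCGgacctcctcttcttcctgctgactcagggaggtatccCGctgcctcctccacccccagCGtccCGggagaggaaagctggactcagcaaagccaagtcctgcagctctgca

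The libraries held 43291086 to 67007186 reads on CpGs. At the intergenic CpGs the median depth was 27 reads in WT 1, which is the lowest, and 47 reads in hSTAT5BN642H 1, which is the highest. The reads have no unique molecular tags and may include PCR copies of 1 fragment, and copies of a repeat that match over a whole read cannot be told apart. Marker loci of cell types were also read, each as the mean level of the CpGs outside CGIs within 10 kb. Near Cd8b1, which encodes a chain of the CD8 coreceptor, the level was 44.2% and 45.6% in WT, 23.9% and 29.4% in hSTAT5B, and 13.9% and 14.3% in hSTAT5BN642H. Near Cd8a it was 57.6% in WT 1 and 15.6% to 29.8% in the other 5 libraries. The myeloid genes Lyz2 and Csf1r had 91.6% or more in every library, and at Cd3e, Cd3g, Cd4, and Cd79a the libraries of WT and hSTAT5BN642H overlapped. The T cell genes Cd3e and Cd3g had 86.5% to 97.1% and 71.7% to 75.7% over the 6 libraries. The B cell gene Cd79a had 26.7% to 37.9%. The levels thus did not sort by cell type and do not by themselves identify the cells. At the B cell gene Cd79b the libraries of WT and hSTAT5BN642H did not overlap, with 39.6% and 50.8% in WT and 58.3% and 53.9% in hSTAT5BN642H. A bulk level cannot tell a small loss in every cell from a larger loss in some cells, and the part that the makeup of the cells has in the genotype differences was not tested.

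Intergenic CpGs were highly methylated in all 3 genotypes and had the lowest level in hSTAT5BN642H. The mean level was 89.2% and 89.7% in WT, 89.8% and 89.6% in hSTAT5B, and 88.3% and 88.5% in hSTAT5BN642H. Both hSTAT5BN642H libraries were thus below the other 4, whereas WT and hSTAT5B overlapped. With the SD over n = 2 libraries, WT averaged 89.5% ± 0.309, hSTAT5B averaged 89.7% ± 0.102, and hSTAT5BN642H averaged 88.4% ± 0.158. hSTAT5BN642H minus WT was -1.02 percentage points, with -1.35 to -0.69 over the 4 pairs of libraries, and the 2-sided exact permutation test gave p = 0.333, the smallest that 2 against 2 libraries allow. hSTAT5B minus WT was 0.248 points (exact permutation p = 0.667), less than the 0.437 points by which the WT libraries differed (WT 1 minus WT 2 was -0.437). hSTAT5BN642H minus hSTAT5B was -1.27 points (exact permutation p = 0.333). Against the other 4 libraries together the difference was -1.14 points (exact permutation p = 0.0667, the smallest that 2 against 4 allow, and 0.267 after Benjamini-Hochberg adjustment over 16 comparisons). No exact permutation test of these means could pass 0.05.

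The difference from WT was larger than at CpGs in or near genes, where it was -0.563 points, and it had the opposite sign in CGIs. CpGs in or near genes also differ from intergenic ones in starting level, and the part of that was not tested. Over the other CpGs outside CGIs the level was 79.1% and 79.6% in WT, 79.6% and 79.5% in hSTAT5B, and 78.7% and 78.9% in hSTAT5BN642H. The gap between intergenic and these CpGs was computed within each library, so that a shift common to all CpGs of a library cancels. This gap was 10.1, 10.1, 10.2, and 10.1 points in the WT and hSTAT5B libraries and 9.63 and 9.65 points in hSTAT5BN642H. The hSTAT5BN642H gap was thus smaller than in any other library, and the difference in the gap was -0.488 points (exact permutation p = 0.0667, 0.267 after adjustment). With reads pooled over CpGs this difference was -0.279 points (exact permutation p = 0.2). CpGs in CGIs had 7.42% to 7.67% in WT and hSTAT5B and 7.71% and 7.8% in hSTAT5BN642H.

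The distribution of levels differed in the upper range. The share of intergenic CpGs at 95% or more was 54.8% and 57.4% in WT, 58.1% and 57.7% in hSTAT5B, and 49.6% and 50.8% in hSTAT5BN642H. The share from 80% to under 95% was 28.6% to 30.8% in the WT and hSTAT5B libraries and 35.01% and 33.9% in hSTAT5BN642H. Both hSTAT5BN642H libraries had fewer CpGs in the top class and more in the class below it than the other 4. The share at a level close to 100% depends on depth. CpGs under 20% were rare, at 2.36% to 2.5% in all 6 libraries. When CpGs were sorted by their mean in hSTAT5B, a genotype that enters neither side of the comparison with WT, hSTAT5BN642H minus WT was -0.83 points for the 93641 CpGs at 95% or more, -1.52 points for the 46742 CpGs from 80% to 95%, and -1.07 points for the 16892 CpGs from 20% to 80%. The 3927 CpGs under 20% had 10.8% and 10.1% in WT and 10.9% and 11.2% in hSTAT5BN642H, a difference of 0.573 points. In the same order of classes, the other CpGs outside CGIs gave -0.666, -1.34, -0.026, and 0.772 points. Of those CpGs 12.4% were under 20% in hSTAT5B, against 2.44% of the intergenic ones.

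The level was higher farther from genes in every library, and hSTAT5BN642H was below the other 4 libraries in every distance class. CpGs 10 to 20 kb from a gene had 87.7% and 88.1% in WT and 86.9% and 87.1% in hSTAT5BN642H. CpGs more than 200 kb away, in the deepest gene deserts, had 92.3% and 92.4% in WT and 91.0% and 91.2% in hSTAT5BN642H. The 5 distance classes ordered the WT and hSTAT5BN642H means alike. hSTAT5BN642H minus WT was -0.91 points at 10 to 20 kb, -0.946 points at 20 to 50 kb, -1.17 points at 50 to 100 kb, -1.25 points at 100 to 200 kb, and -1.22 points beyond. Inside genes it was -0.544 points. The median distance was 31.8 kb, and 54398 CpGs were more than 50 kb from a gene.

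**Figure D1:**
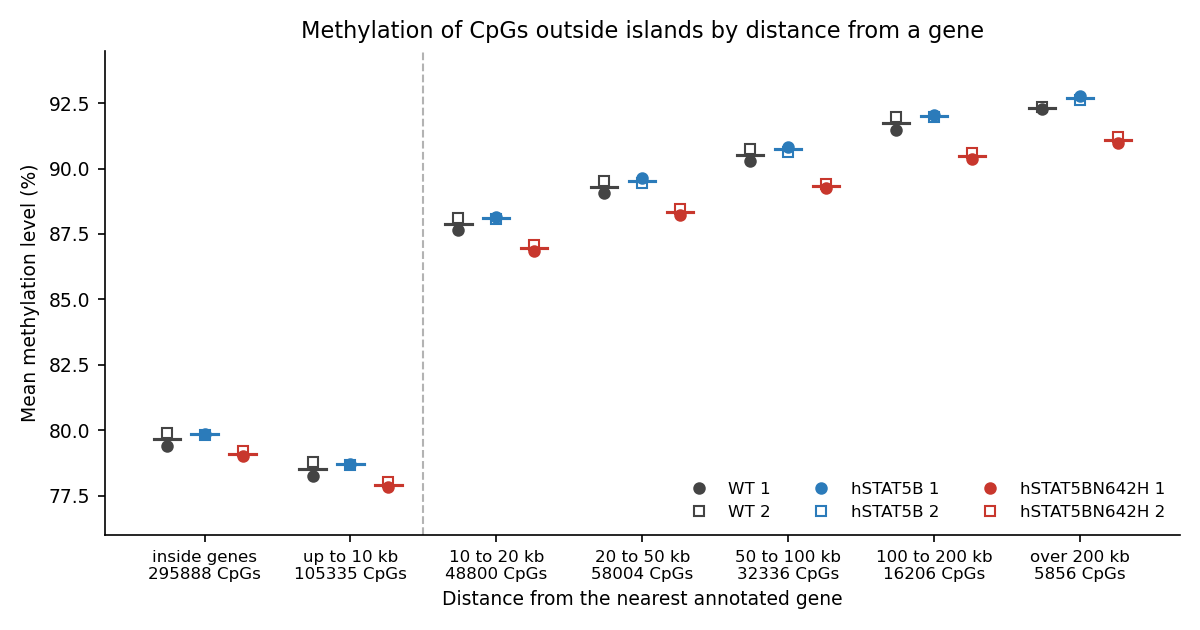
Mean methylation level in percent (y axis, not starting at 0) of CpGs outside CGIs in each library by distance from the nearest annotated gene, with the number of CpGs under each class. Filled circles are replicate 1, open squares replicate 2, and bars the mean of 2 libraries. The dashed line separates the comparison CpGs (left) from the intergenic CpGs (right). hSTAT5BN642H lies under the other 4 libraries in each intergenic class, and the levels go up from 86.9% and 87.1% at 10 to 20 kb to 91.0% and 91.2% beyond 200 kb.

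On all 19 autosomes both hSTAT5BN642H libraries were below both WT libraries and also below both hSTAT5B libraries. Over both classes of CpG together the share of autosomes with both hSTAT5BN642H libraries below both WT libraries was 97.4%, so that this was not particular to intergenic CpGs. The size differed: hSTAT5BN642H minus WT ranged from -1.24 points on chromosome 9 to -0.775 points on chromosome 5, with a median of -1.01, whereas at the other CpGs outside CGIs the median over autosomes was -0.543. On chromosome 9 the level was 89.3% and 89.6% in WT and 88.0% and 88.5% in hSTAT5BN642H. On chromosome 5 it was 87.0% and 87.5% in WT and 86.4% and 86.6% in hSTAT5BN642H. The 4 pairs of libraries ran from -1.6 to -0.882 on chromosome 9 and from -1.1 to -0.455 on chromosome 5. The hSTAT5B mean was above the WT mean on all 19 autosomes, by 0.0774 to 0.396 points, but both hSTAT5B libraries were above both WT libraries on 4 of them, with a background of 18.4% over both classes. The lowest level was on the gene-dense chromosome 11 (86.1% and 86.7% in WT) and the highest on chromosome 1 (90.7% and 91.0%). Across the 19 autosomes, which share their libraries, Pearson's r between the WT level and protein-coding genes per Mb was -0.584, and between the hSTAT5BN642H difference and genes per Mb it was 0.241.

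**Figure D2:**
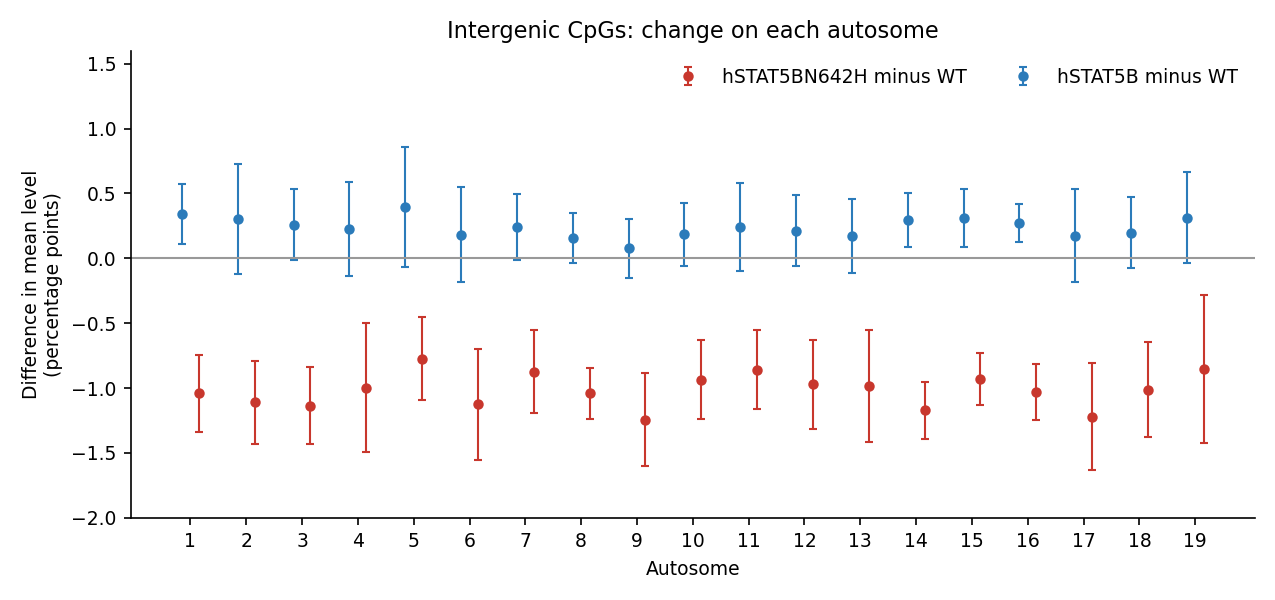
Difference from WT in the mean level of intergenic CpGs, in percentage points (y axis), on each of the 19 autosomes (x axis). Points are differences of genotype means and bars span the 4 pairs of libraries. All hSTAT5BN642H bars are below 0, between -0.775 and -1.24 at their points, while the hSTAT5B bars are wholly above 0 on 4 autosomes.

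The level was lower in gene-rich than in gene-free windows in every library. Among the classes of protein-coding gene density, hSTAT5BN642H was furthest from WT where no protein-coding gene starts. The genome was cut into fixed 1-Mb windows, sorted by the number of protein-coding gene starts. Gene-free means no protein-coding start, though other annotated genes may start there, and gene-rich means 10 or more. In windows with no such start, the 27824 intergenic CpGs had 92.2% and 92.5% in WT, 92.7% and 92.5% in hSTAT5B, and 91.0% and 91.2% in hSTAT5BN642H. In windows with 10 or more, the 34900 intergenic CpGs had 85.6% and 86.1% in WT, 86.1% and 86.0% in hSTAT5B, and 85.0% and 85.3% in hSTAT5BN642H. From no start to 1 to 4, 5 to 9, and 10 or more, hSTAT5BN642H minus WT was -1.24, -1.14, -0.98, and -0.673 points. At the other CpGs outside CGIs the same classes gave -1.18, -0.792, -0.572, and -0.437 points. Both kinds of CpG thus had their lowest value in gene-free windows.

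Within each library the gene-free CpGs exceeded the gene-rich ones by 6.63 and 6.45 points in WT, by 6.64 and 6.56 in hSTAT5B, and by 5.99 and 5.96 in hSTAT5BN642H. hSTAT5BN642H minus the other 4 libraries in this contrast was -0.594 points (exact permutation p = 0.0667, 0.267 after adjustment over 16 comparisons). With density counted over all annotated genes in place of protein-coding ones it was -0.173 points (exact permutation p = 0.533). Among CpGs outside soft-masked sequence it was -1.02 points, with 9.79 to 10.2 points in the other 4 libraries and 8.94 and 9.01 in hSTAT5BN642H, and among soft-masked CpGs it was -0.354 points. Gene-free CpGs were soft-masked more often, at 82.1% against 47.9% in gene-rich windows. Among CpGs more than 50 kb from a CGI the contrast was -0.314 points, and with no other CpG within 35 bp it was -0.548 points. Among CpGs at 95% or more in hSTAT5B, which are most of the intergenic CpGs, it was -0.0818 points, and hSTAT5BN642H (-0.157 and -0.134 points) overlapped with the other 4 libraries (-0.156 to 0.0481 points). Against WT alone it was -0.13 points. This class was picked by the hSTAT5B libraries, which are among the other 4. Picking by level also brings gene-free and gene-rich CpGs close, so this value cannot decide whether the contrast differs.

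**Figure D3:**
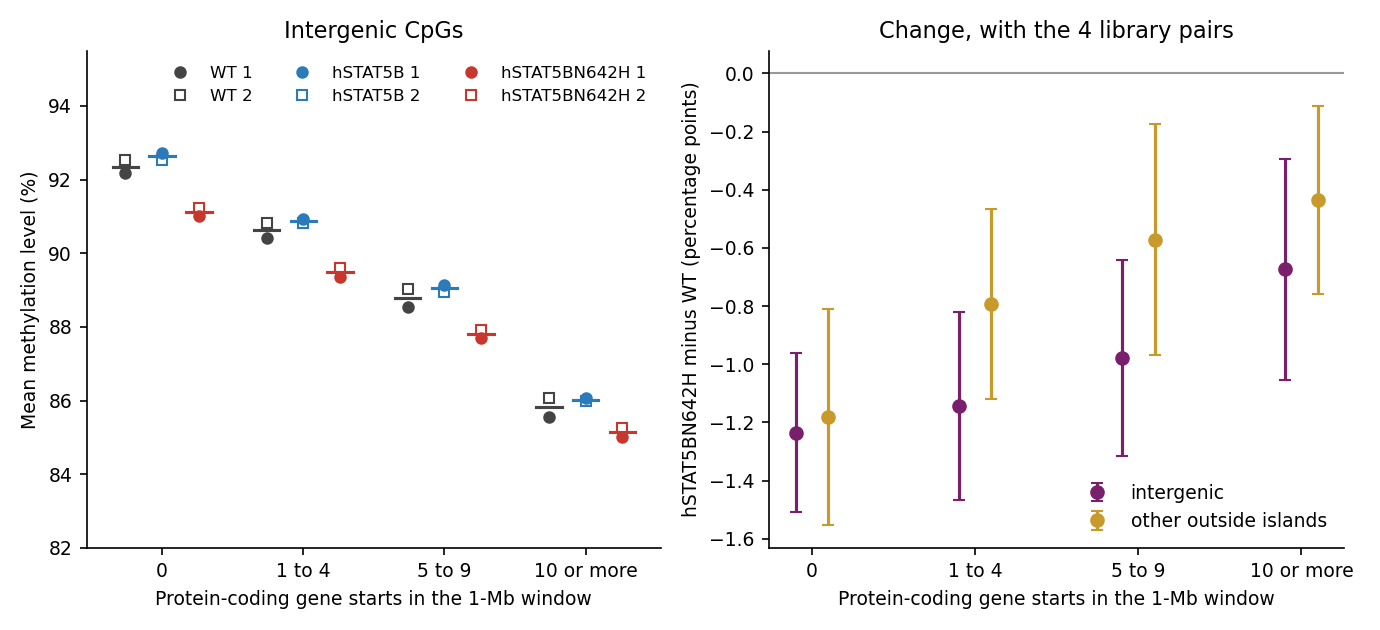
Left, mean level in percent (y axis, not starting at 0) of intergenic CpGs in each library by the number of protein-coding gene starts in the 1-Mb window, with symbols as in the plot by distance. Right, hSTAT5BN642H minus WT in percentage points for intergenic CpGs (purple) and other CpGs outside CGIs (yellow), where bars span the 4 pairs of libraries. Intergenic levels go from 92.2% and 92.5% to 85.6% and 86.1% in WT, and the difference goes from -1.24 to -0.673 points.

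Across the 2026 windows with at least 20 intergenic CpGs, the difference was broad and small. hSTAT5BN642H was below WT on average in 1729 windows (85.3%), with a median difference of -1.06 points. At the other CpGs outside CGIs it was below WT in 1809 of 2269 windows (79.7%), with a median of -0.694 points. In the intergenic windows the median absolute difference was 0.803 points between the WT libraries and 0.687 points between the hSTAT5BN642H libraries. Both hSTAT5BN642H libraries were below both WT libraries in 1175 windows (58.0%) and above both in 86 (4.24%). Over windows of both classes of CpG these shares were 53.6% and 5.96%. In gene-free windows both were below in 197 of 251 (78.5%) and above in 1. The share was 66.7% with 1 to 4 starts, 54.5% with 5 to 9, and 40.5% with 10 or more. These shares by class were not counted at the other CpGs outside CGIs. There hSTAT5BN642H minus WT had the same order, from -1.18 points with no start to -0.437 points with 10 or more. The order is thus not shown to be particular to intergenic CpGs. The gene-free windows held 27765 CpGs, and the 555 windows with 10 or more starts held 33025. Between the WT libraries the median absolute difference was 0.626 points in the former and 1.09 points in the latter. The part of this spread in the shares was not tested. For hSTAT5B both libraries were above both WT libraries in 476 windows (23.5%, background 24.1%) and below both in 227 (11.2%, background 10.9%). Both hSTAT5BN642H libraries were below both hSTAT5B libraries in 1336 windows (65.9%, background 63.2%). Spearman's rho across the 2026 windows, which share their libraries, was -0.356 between WT level and protein-coding starts and 0.178 between the hSTAT5BN642H difference and starts.

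**Figure D4:**
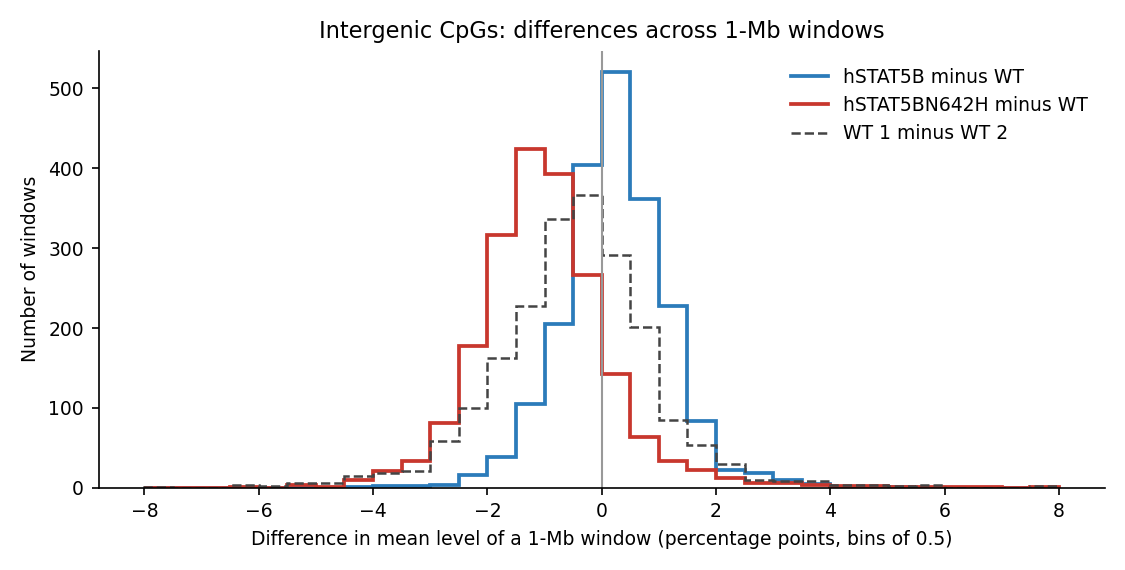
Number of 1-Mb windows (y axis) by the difference in their mean intergenic level in percentage points (x axis, bins of 0.5), over 2026 windows with at least 20 intergenic CpGs. Solid lines are hSTAT5BN642H minus WT and hSTAT5B minus WT, and the dashed line is WT 1 minus WT 2, with 3 windows beyond 8 points put in the end bins. The medians are -1.06, 0.222, and -0.407 points.

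With all 6 libraries and at least 10 CpGs per window, no single intergenic window passed a test across all windows. In limma, with all 6 libraries in 1 model of log2((methylated reads + 1)/(unmethylated reads + 1)), 0 of 2219 intergenic windows had an adjusted p under 0.05 for hSTAT5BN642H against WT, where the smallest was 0.115, and over both classes it was 0 of 4558 (0%). An unadjusted p under 0.05 was found in 637 intergenic windows (28.7%), 591 of them lower in hSTAT5BN642H, with 21.1% over both classes. For hSTAT5B against WT there were also 0 adjusted calls (0%), with 198 windows at an unadjusted p under 0.05 (8.92%, background 7.5%), of which 52 were lower. For hSTAT5BN642H against hSTAT5B there were 0 adjusted calls (0%) and a smallest adjusted p of 0.0675, with 807 windows at an unadjusted p under 0.05 (36.4%, background 28.3%). With at least 20 CpGs per window in place of 10, limma called 130 of 2026 intergenic windows for hSTAT5BN642H against hSTAT5B, 129 of them lower in hSTAT5BN642H, where 197 of 4295 windows (4.59%) were called over both classes. For hSTAT5BN642H against WT it called 1 intergenic window with at least 5 reads per CpG (0.0216% over both classes) and 6 without WT 1 (0.154% over both classes), 4 of these lower and 2 higher in hSTAT5BN642H.

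Windows among those with the lowest levels were gene-rich. Genes named for windows here and below are some of those that start in them, and their link to the level was not tested. The window chr19:44000001-45000000 holds 18 protein-coding starts, among them Pax2, a transcription factor of kidney and eye development. It had 39.6% and 39.9% in WT, 40.4% and 40.6% in hSTAT5B, and 40.2% and 40.5% in hSTAT5BN642H over 113 CpGs. The window chr1:134000001-135000000, with 19 protein-coding starts, among them the muscle regulator Myog, had 46.9% to 50.6% in the 6 libraries. In both the libraries of the 3 genotypes lay within a few points. The highest levels, 96.0% to 98.2% in all libraries, were in chr6:119000001-120000000 with the calcium channel gene Cacna1c, chr1:37000001-38000000, and chr15:10000001-11000000 with the prolactin receptor gene Prlr.

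Among windows in which the libraries of hSTAT5BN642H and WT did not overlap, those furthest below WT were chosen by that difference, so that their values are a description. At chr12:79000001-80000000, with the recombination gene Rad51b, the level was 78.8% and 85.0% in WT, 82.2% and 79.1% in hSTAT5B, and 75.1% and 75.99% in hSTAT5BN642H. At chr6:6000001-7000000, around the homeobox genes Dlx5 and Dlx6 of limb and craniofacial development, it was 89.2% and 90.6% in WT, 91.5% and 91.6% in hSTAT5B, and 83.6% and 85.4% in hSTAT5BN642H. At chr13:89000001-90000000, with the matrix proteoglycan gene Vcan, it was 88.0% and 84.4% in WT and 80.6% and 81.2% in hSTAT5BN642H. The largest differences above WT were in gene-rich windows. At chr7:29000001-30000000, with the calcium release channel gene Ryr1, WT had 91.9% and 82.1%, hSTAT5B 89.9% and 90.4%, and hSTAT5BN642H 94.99% and 94.8%, and WT 2 stood apart from the other 5 libraries. At chr16:32000001-33000000, with the transferrin receptor gene Tfrc, WT had 74.4% and 75.4%, hSTAT5B 78.1% and 78.8%, and hSTAT5BN642H 80.8% and 82.9%. At chr5:107000001-108000000, with Gfi1, a transcriptional repressor of blood cells, WT had 79.4% and 78.8%, hSTAT5B 84.8% and 81.7%, and hSTAT5BN642H 86.4% and 84.5%.

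At the most frequent context, copies far from genes and copies near them had alike values. Sites of context 1 far from genes had 96.95% and 97.6% in WT, 97.5% and 97.3% in hSTAT5B, and 96.2% and 96.2% in hSTAT5BN642H. The 8002 sites of this context in or near genes had 96.8% and 97.5% in WT and 96.1% and 96.3% in hSTAT5BN642H. hSTAT5BN642H minus WT was -1.09 points far from genes and -0.997 points in or near them. In gene-free windows it was -1.04 points (2214 sites) and in gene-rich windows -1.12 points (832 sites), and hSTAT5BN642H minus the other 4 libraries in the contrast of gene-free and gene-rich sites was 0.0622 points (exact permutation p = 0.467). At context 2 the values were -1.7 points far from genes and -1.73 points in or near them. The comparison within contexts was chosen after the data were seen, and reads from matching copies may have been placed at the wrong copy, and the part of this in the result was not tested.

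Among sites whose context is found at no other intergenic site, the gene density contrast was smaller in hSTAT5BN642H than in each of the other 4 libraries. In gene-free windows these 5580 sites had 91.4% and 92.3% in WT, 91.9% and 91.9% in hSTAT5B, with hSTAT5BN642H minus WT at -1.75 points. In gene-rich windows 13190 sites had 82.5% and 83.3% in WT and 82.3% and 82.4% in hSTAT5BN642H. The contrast was 8.85 to 8.93 points in the WT and hSTAT5B libraries and 7.72 and 7.72 in hSTAT5BN642H, a difference of -1.17 points (exact permutation p = 0.0667, the smallest possible). The contrast of these intergenic sites with the 2483 sites in or near genes that share a context with them had the other sign. In it hSTAT5BN642H minus the other 4 libraries was 0.128 points (exact permutation p = 0.467). Most of these contexts have no measured site in or near genes, so the sides are not matched and the contrast cannot decide. In WT the sides had 86.7% and 87.4% against 91.6% and 91.9%. For contexts found once among sites of their own kind, hSTAT5BN642H minus WT was -0.983 points far from genes. In or near genes it was -0.403 points.

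Over the 8 contexts hSTAT5BN642H minus WT ranged from -2.63 points at context 7 to -0.17 points at context 3. Context 7, which differs from context 1 by the single substitution T9G, had 95.3% and 95.8% in WT, 95.7% and 95.46% in hSTAT5B, and 92.6% and 93.2% in hSTAT5BN642H over 699 sites. Context 4, which differs from context 1 by T19C, had 97.7% and 98.2% in WT and 96.9% and 96.97% in hSTAT5BN642H, a difference of -1.05 points. hSTAT5B was furthest above WT at context 5, with 98.4% and 98.3% against 97.2% and 97.2%, and 96.4% and 96.2% in hSTAT5BN642H. At context 3 hSTAT5B minus WT was 0.665 points, with both hSTAT5B libraries above both WT libraries. The libraries of hSTAT5BN642H and WT overlapped at contexts 3 and 6.

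**Figure D5:**
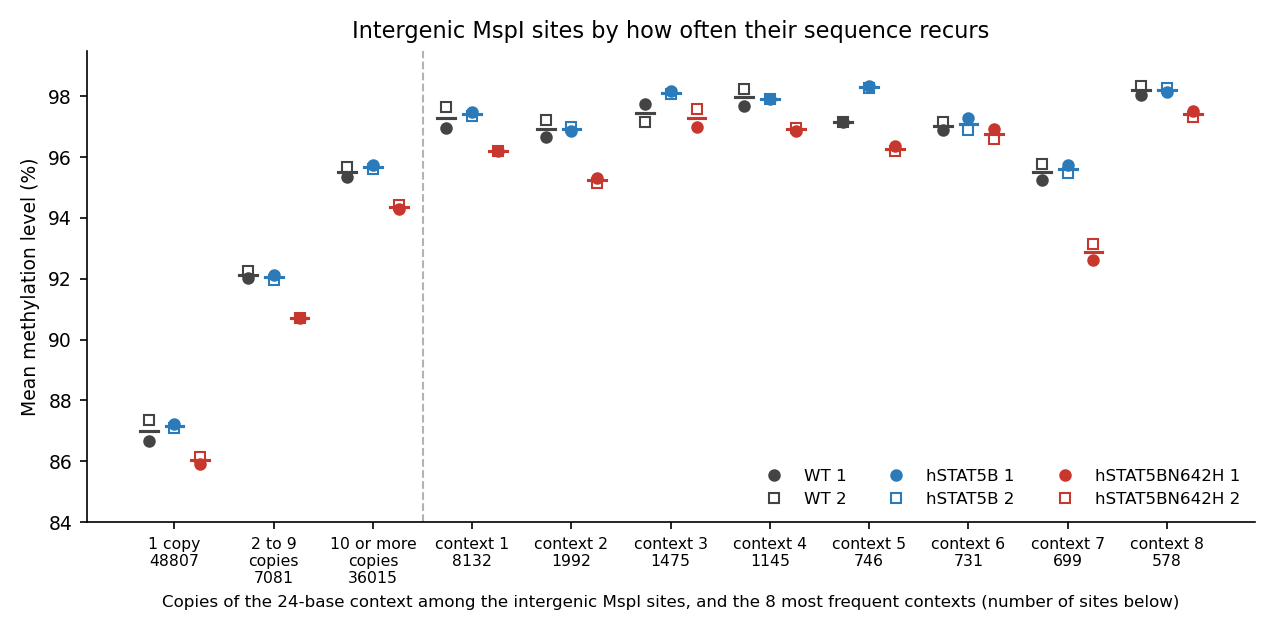
Mean level in percent (y axis, not starting at 0) of intergenic MspI sites in each library, with symbols as in the plot by distance. Left of the dashed line, sites are grouped by how many intergenic sites share their 24 bases, and right of it are the 8 most frequent contexts, with the number of sites below. Sites with 10 or more copies have 95.3% and 95.7% in WT and 94.3% and 94.4% in hSTAT5BN642H, and context 7 has the widest gap among the 8.

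The difference between hSTAT5BN642H and WT was also sorted by local CpG spacing. Intergenic CpGs with no other CpG within 35 bp, 28.6% of all, had 90.9% and 91.7% in WT and 89.6% and 89.8% in hSTAT5BN642H. With 0, 1, 2, and 3 or more others, hSTAT5BN642H minus WT was -1.57, -1.19, -0.887, and -0.481 points. The 713 isolated CpGs with A or T on both sides had 77.6% and 79.1% in WT, 78.0% and 77.7% in hSTAT5B, and 73.3% and 74.6% in hSTAT5BN642H. Relative to dense CpGs flanked by G or C on both sides, the isolated ones stood at -12.0 and -10.5 points in WT, -12.1 and -12.2 in hSTAT5B, and -15.6 and -14.5 in hSTAT5BN642H. The difference between hSTAT5BN642H and the other 4 libraries in this contrast was -3.35 points (exact permutation p = 0.0667, 0.267 after adjustment). At the other CpGs outside CGIs the isolated class gave -3.01 points for hSTAT5BN642H minus WT, against -4.38 points for the intergenic one. Whether these differ was not tested.

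CpGs close to a CGI had other values. The 1142 intergenic CpGs up to 2 kb from a CGI, which are shores of islands without an annotated gene, had 56.0% and 56.7% in WT and 56.1% and 56.3% in hSTAT5BN642H. The 2100 CpGs 2 to 10 kb from a CGI had 78.1% and 76.1% in WT, 78.1% and 77.7% in hSTAT5B, and 79.5% and 79.4% in hSTAT5BN642H, so that hSTAT5BN642H was 2.37 points above WT. Of the 280 windows that held these CpGs, 151 were lower and 127 higher in hSTAT5BN642H, with a median of -0.283 points, and without the 10 windows that added most the difference was 0.949 points. More than 1 Mb from any CGI, 16186 CpGs had 92.7% and 93.0% in WT and 91.4% and 91.6% in hSTAT5BN642H.

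Unmethylated places far from genes were few. Of 11922 clusters with at least 4 intergenic CpGs within 300 bp, 254 (2.13%) had a mean under 20% over the 6 libraries, and 10539 (88.4%) had 80% or more. Of the 254, 35 lay within 2 kb of a CGI, and 4.4% of their CpGs on average were soft-masked, against 70.2% in clusters at 80% or more. The 5 lowest clusters were chosen by a low mean over all 6 libraries, so that low values in each genotype follow from the choice. The lowest, chr1:21166507-21166529, lies 52046 bp from Tmem14a and had 0% to 1.25% in the 6 libraries. The cluster at chr4:156077471-156077565, 187 bp from a CGI and 18057 bp from Ttll10, had 0% to 1.05%. At chr9:32940528-32940762, the cluster printed above, 182708 bp beyond the end of Ets1 (plus strand, chr9:32636221-32757820), a transcription factor of T cell development, the level was 2.01% and 1.94% in WT, 0.74% and 0% in hSTAT5B, and 0% and 0.17% in hSTAT5BN642H on 158 to 418 reads. The last pair of the 5 lowest, near Olfr1368 and Cystm1, had 0% to 1.89%. By the position rule none of the 5 is in a CGI, and 4 of them have no soft-masked CpG.

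The clusters with most intergenic CpGs in gene-free windows were methylated. The cluster chr14:81560708-81561003, 1537569 bp from Olfm4, held 21 intergenic CpGs, 95.2% of them soft-masked, and had 94.1% and 93.0% in WT, 94.8% and 96.0% in hSTAT5B, and 93.4% and 94.2% in hSTAT5BN642H. The cluster chr3:12837302-12837490, 634165 bp from Ralyl, had 87.2% to 89.4% over 19 CpGs. The cluster chr1:27139751-27140041 had 90.3% to 93.9%. The 3 CpGs farthest from any gene, 612 kb from the nearest lincRNA and over 1 Mb from Cntnap5a, lie side by side on chromosome 1 and were intermediate. The one at the centre of the printed sequence, chr1:114576547-114576548, had 62.5% and 63.04% in WT, 76.5% and 66.7% in hSTAT5B, and 68.1% and 66.7% in hSTAT5BN642H on 24 to 47 reads.

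Each intergenic CpG was also assigned to its nearest protein-coding gene, and 3441 genes had at least 10. Both hSTAT5BN642H libraries were below both WT libraries at 1559 of these genes (45.3%), and the median difference was -1.07 points. Genes for cadherins and neuronal adhesion, many of which are long genes next to gene deserts, had a higher share, which was not tested. At 49 of 59 (83.1%) both hSTAT5BN642H libraries were below both WT libraries, and the median difference was -1.28 points. The hSTAT5BN642H mean was lower at all 59, against 2644 (76.8%) of all 3441 genes. These 59 genes held 9339 CpGs, against 147292 over all 3441 genes. A mean over more CpGs varies less between libraries, so the shares are not on the same footing. Near Epha3, an ephrin receptor, 61 CpGs had 95.4% and 94.3% in WT, 95.1% and 95.3% in hSTAT5B, and 92.4% and 92.5% in hSTAT5BN642H. Near Lrrtm4, a synaptic adhesion protein, 74 CpGs had 86.8% and 88.5% in WT and 85.1% and 85.5% in hSTAT5BN642H. Slit3, an axon guidance ligand, had the lowest level of the list, with 58.5% and 59.1% in WT and 57.8% and 57.4% in hSTAT5BN642H over 18 CpGs.

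The other lists were near the background or too short to read. For developmental transcription factors the count was 32 of 70 (45.7%), with a median difference of -0.842 points. The lowest of them were Pax2 (20.2% to 21.6% over 78 CpGs), Lhx5 (32.2% to 38.2%), and Uncx (36.6% to 40.95%). For chemosensory receptors, which lie in tandem clusters and are not used by T cells, it was 42 of 112 (37.5%). For T cell identity genes it was 9 of 21 (42.9%), and at 3 of 21 (14.3%, background 7.59%) both hSTAT5BN642H libraries were above both WT libraries. Tcf7, which encodes the T cell factor TCF-1, had the lowest intergenic level of that list over 12 CpGs, with 30.0% and 22.7% in WT, 20.04% and 17.02% in hSTAT5B, and 20.3% and 16.3% in hSTAT5BN642H, so that both transgenic genotypes were below WT. Prdm1, which encodes the repressor BLIMP-1, had 96.9% and 95.52% in WT and 92.4% and 94.3% in hSTAT5BN642H over 10 CpGs. Id3, an inhibitor of E proteins, had 58.9% and 61.5% in WT and 62.1% and 62.2% in hSTAT5BN642H, and Klf3, a transcriptional repressor, had 67.3% and 67.7% in WT and 70.7% and 68.8% in hSTAT5BN642H. For STAT5 targets and IL-2 signalling it was 1 of 7, at Prlr, with 95.46% and 95.4% in WT and 93.3% and 93.7% in hSTAT5BN642H. Near Socs3, a feedback inhibitor of cytokine signalling, the level was 91.9% and 95.3% in WT and 97.7% and 94.7% in hSTAT5BN642H, and near Myc, the growth regulator, it was 92.7% and 93.2% in WT and 93.8% and 91.9% in hSTAT5BN642H.

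At the finer scale of 5-kb tiles no intergenic tile was called either. In limma 0 of 19255 intergenic tiles had an adjusted p under 0.05 in any of the 3 comparisons, and 0 of 75193 tiles in all (0%). An unadjusted p under 0.05 was found in 1273 intergenic tiles for hSTAT5BN642H against WT (6.61%, background 7.81%), 1010 of them lower in hSTAT5BN642H. The counts were 1082 (5.62%, background 6.4%) for hSTAT5B against WT and 1450 (7.53%, background 7.94%) for hSTAT5BN642H against hSTAT5B. Tiles among those with the smallest p are given as a description. The Slc37a3 tile, chr6:39280001-39285000, had 98.0% and 97.8% in WT, 99.3% and 99.2% in hSTAT5B, and 84.8% and 84.2% in hSTAT5BN642H over 6 CpGs (limma adjusted p = 0.579 against WT and 0.584 against hSTAT5B). The Bcas1 tile, chr2:170255001-170260000, went the other way, with 80% and 84.9% in WT, 86.9% and 88.6% in hSTAT5B, and 98.1% and 98.4% in hSTAT5BN642H over 3 CpGs. Tiles near Pi4k2b and Gpd2 had the next smallest p for hSTAT5BN642H against hSTAT5B, and tiles near Kcnma1, Scg3, and Gm7361 for hSTAT5B against WT, all with an adjusted p of 0.584 or more.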

How the data were processed

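RRBS was done on 6 libraries of CD8+ T cells, 2 per genotype. The authors trimmed reads with Trimmomatic and aligned them to GRCm38 (mm10) with BSMAP, per the submitters' processing notes and the paper's methods. The deposited files give per CpG the methylated and total read counts as a pair, not normalized, and a score. The authors made the score as 1000 times the methylated share, and it did not enter the levels here. The level of a CpG is methylated over total reads, and a group level is the unweighted mean over CpGs. Genes were those of GENCODE M21, and CGIs followed the UCSC rule (score 17 against -1, over 200 bp, GC over 50%, observed/expected over 0.6). Contexts, clusters, tiles, and densities were read from GRCm38. Means were compared with exact permutation tests, 2-sided, and windows (at least 10 CpGs) and tiles (at least 3 CpGs) with limma and Benjamini-Hochberg adjustment at 0.05 over all rows. The code was tested on simulated data. Replicate numbers were not treated as pairs in the main tests. Deviations of same-numbered libraries correlated at -0.0156 to 0.0393. These deviations include read sampling, so the values cannot show that the libraries were unpaired. Named places followed a rule: the 3 lowest, highest, and most different windows, the 5 lowest clusters, the 3 densest gene-free clusters, the 3 farthest CpGs, and, with no call, the 3 tiles with the smallest p. A window, a marker locus, and a tile that the rules name are not reported here. Members and lists were chosen with earlier results of these data known. Alternatives were 5 or 20 reads, under 200 reads, pooled reads, 50 kb, protein-coding genes only, no soft-masked CpGs, other limma settings, and leaving out each library. Work was done with Python 3.11.15, pandas 2.3.3, R 4.3.3, and limma 3.58.1.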

Additional observations from a re-analysis of the deposited data

Results flagged for a closer look

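The transgenic genotypes lay on opposite sides of WT in 3 measures, in both libraries of each against the WT mean. For the mean level of intergenic CpGs, hSTAT5B minus WT was 0.248 points and hSTAT5BN642H minus WT was -1.02 points. For the difference between gene-free and gene-rich intergenic CpGs these were 0.0631 and -0.562 points, and for the difference between intergenic CpGs and CpGs in or near genes they were 0.0607 and -0.457 points. Both comparisons share the WT libraries, and the opposite direction itself was not tested. For the mean level and the gene density measure, though not for the third, the hSTAT5B difference was smaller than that between the WT libraries.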

How the results depend on the processing

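The differences in mean level and in the 3 contrasts kept their sign under every alternative planned for them. hSTAT5BN642H minus WT in mean level ranged from -1.2 to -0.855 points over settings, and hSTAT5BN642H minus the other 4 libraries from -1.33 to -1.02. Leaving out 1 library moved hSTAT5BN642H minus WT to between -1.24 and -0.802 points, and hSTAT5B minus WT to 0.0294 points without WT 1 and 0.466 points without WT 2, the limits for that difference. The contrast of gene-free and gene-rich CpGs ranged from -1.02 to -0.173 points. In alternatives added after the data were seen, it was 0.0622 points, with the sign reversed, at sites of context 1. At sites whose context is found at no other intergenic site it was -1.17 points. The difference between intergenic CpGs and CpGs in or near genes was -0.0839 points at context 1. At contexts found once among intergenic sites this difference was 0.128 points, where the sides hold largely different contexts.

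Among window counts, at least 5 reads per CpG gave 1 call for hSTAT5BN642H against WT in place of 0 (0.0216% of windows over both classes), and at least 20 CpGs per window gave 130 of 2026 for hSTAT5BN642H against hSTAT5B in place of 0 (4.59% over both classes). The cause was not tested. Leaving out a library gave 0 to 6 window calls for hSTAT5BN642H against WT, with the 6 found without WT 1 (0.154% over both classes), and 0 in the other counts. The replicate block, in which the replicate number was a term of the model, gave 0 calls in all 6 counts of windows and tiles. Depth limits single CpGs and tiles: a CpG had a median of 27 to 47 reads, and 3 residual degrees of freedom limit each tile.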
